A study of Mus musculus with 10 samples.

Results

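Followed here in tissue RNA are 10 marker genes of lipid-associated macrophages, Gpnmb, Trem2, Cd9, Spp1, Itgax, Mmp12, Atp6v0d2, Lgals3, Apoe and Fabp7, which are 10 of the 32889 genes measured. Each was found by its symbol, each matched 1 row, and 9 passed the filter on low counts; Fabp7 did not. The set was put together knowing that Gpnmb, and macrophage genes as a group, were higher in obesity-prone than in control libraries. Levels of the 10 genes and of other macrophage genes in that comparison are therefore a description without a test, and the other comparisons share libraries with it.

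RNA was sequenced from brown adipose tissue, the fat depot that burns lipid to make heat, of wild-type C57BL/6J mice. The obesity-prone group (3 libraries) and the obesity-resistant group (3 libraries) were on a high-fat diet, and the control group (4 libraries) was on regular chow. The labels name no age, sex, length of feeding or weight limit that divided prone from resistant mice. Whether each library is its own animal is not stated in them, so p-values measure only the spread between these libraries, which may be technical.

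In obese fat of mice and humans, lipid-associated macrophages gather around dying adipocytes, take up the lipid they release and digest it in lysosomes. TREM2, a receptor for lipids and lipoproteins on the macrophage surface, signals through the adaptor TYROBP and the kinase SYK and is needed for this state in mouse fat. GPNMB, a membrane glycoprotein of lysosomes and melanosomes, is switched on in lipid-loaded macrophages, and its gene is a known target of MITF and related factors.

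The libraries held between 35583997 and 37327770 counts. The tissue label fits its markers, as all 11 brown adipocyte markers were detected in every library and Ucp1, the uncoupling protein of brown fat, stood at 2882 to 8461 CPM (counts scaled to library size) in obesity-prone, 8653 to 9753 in obesity-resistant and 6240 to 10270 in control libraries. Obesity-prone replicate 3 stood apart, with 4391 CPM summed over the brown adipocyte markers against 9023 to 12990 in the other 9 libraries. Its 7 erythrocyte markers summed to 22210 CPM, and those of control replicate 4 to 6160 CPM, against 708 to 4758 CPM in the other 8 libraries. The first principal component, the axis of widest spread over all genes tested, held 30.58% of the variance. On it control replicate 4 lay at -11.05, apart from control replicates 1 to 3 at 41.7, 34.89 and 55.57. Obesity-resistant libraries lay at -0.48 to 6.38 and obesity-prone ones at -74.6 to -19.73. Values without obesity-prone replicate 3 or control replicate 4 stand with the comparisons.

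Promoter sequences of 9 of the 10 genes were in the RefSeq table for GRCm38.p6, each spanning 250 bases before to 50 bases after a transcript start, 13 windows in all. They were searched on both strands for 4 motifs: TGANTCA, bound by AP-1 factors, in 4 of the 13 windows, CACGTG, an E-box of MiT/TFE factors, in 0, TCATGTG, an M-box form, in 1, and GAGGAAGT, a PU.1 type site, in 2. Of all 32851 windows in the table, from 27025 genes, 7.81% held TGANTCA, 7.15% CACGTG, 3.77% TCATGTG and 3.2% GAGGAAGT. The 4 windows with TGANTCA belong to Gpnmb (chr6:49036268-49036567, plus strand), Trem2 (chr17:48346151-48346450, plus strand), Itgax (chr7:128129300-128129599, plus strand) and the second listed start of Mmp12 (chr9:7347124-7347423, plus strand). They are shown because TGANTCA was the motif found in the largest number of the 13 windows. Capitals mark the motifs, and in Mmp12 the first capitals are TCATGTG on the opposite strand.
Gpnmb: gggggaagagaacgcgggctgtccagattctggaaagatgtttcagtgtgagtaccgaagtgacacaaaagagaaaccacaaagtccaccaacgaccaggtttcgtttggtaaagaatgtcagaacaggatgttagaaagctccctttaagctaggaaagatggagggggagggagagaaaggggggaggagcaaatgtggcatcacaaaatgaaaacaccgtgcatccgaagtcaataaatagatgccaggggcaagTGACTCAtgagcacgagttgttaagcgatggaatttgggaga
Trem2: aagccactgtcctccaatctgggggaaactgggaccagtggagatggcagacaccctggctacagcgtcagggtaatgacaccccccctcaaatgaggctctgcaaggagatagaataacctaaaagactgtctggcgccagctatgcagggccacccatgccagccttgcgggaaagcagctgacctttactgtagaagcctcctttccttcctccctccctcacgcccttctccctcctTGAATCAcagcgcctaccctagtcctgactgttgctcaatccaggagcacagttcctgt
Itgax: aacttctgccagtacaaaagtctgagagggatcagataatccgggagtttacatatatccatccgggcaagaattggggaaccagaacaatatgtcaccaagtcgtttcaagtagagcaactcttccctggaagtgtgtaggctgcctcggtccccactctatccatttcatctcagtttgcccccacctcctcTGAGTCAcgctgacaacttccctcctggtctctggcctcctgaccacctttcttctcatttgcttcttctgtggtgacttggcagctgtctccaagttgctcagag
Mmp12: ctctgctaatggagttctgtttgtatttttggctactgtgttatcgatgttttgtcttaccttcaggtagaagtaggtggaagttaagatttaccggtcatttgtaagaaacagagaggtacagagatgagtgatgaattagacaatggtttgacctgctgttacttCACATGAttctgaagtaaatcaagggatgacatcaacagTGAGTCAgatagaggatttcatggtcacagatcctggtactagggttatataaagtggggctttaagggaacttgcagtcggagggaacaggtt
With the first transcribed base as 1 and no base numbered 0, TGANTCA begins at 9 in Gpnmb, -9 in Trem2, -56 in Itgax and -44 in Mmp12. These matches describe letters in a window and say nothing of binding.

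Per length, in FPKM, the 10 genes spanned a wide range of levels in each group. In obesity-prone libraries the order was Apoe (293 ± 93.9, SD, n = 3), Lgals3 (42.4 ± 29.6), Mmp12 (11.2 ± 8.79), Cd9 (10.4 ± 4.6), Gpnmb (9.68 ± 7.62), Trem2 (3.50 ± 2.52), Atp6v0d2 (2.40 ± 1.87), Itgax (2.39 ± 1.59), Spp1 (0.783 ± 0.239) and Fabp7 (0.0733 ± 0.0351). From Mmp12 down to Itgax each neighbour differed by less than the larger SD. In obesity-resistant libraries Apoe stood at 261 ± 40.9, Lgals3 at 9.63 ± 3.39, Cd9 at 6.30 ± 0.592 and Gpnmb at 2.26 ± 0.486 (n = 3), and the remaining 6 genes at means of 0.103 to 1.42. Control libraries held Apoe at 509 ± 88.2, Lgals3 at 6.92 ± 5.88, Cd9 at 5.66 ± 1.88 and Gpnmb at 2.15 ± 0.946 (n = 4), and the remaining 6 genes at means of 0.075 to 1.39. Lgals3 and Cd9 differed by less than the SD of Lgals3 in these last 2 groups, as did the neighbours from Gpnmb through Mmp12 down to Itgax by their own SDs.

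Gpnmb, the gene that gave rise to the set, lies at chr6:49036518-49058182. It stood at 24.8, 13.8 and 64.6 CPM in obesity-prone replicates 1 to 3, at 7.90, 9.91 and 6.64 CPM in obesity-resistant replicates 1 to 3, and at 9.03, 8.20, 3.56 and 11.5 CPM in control replicates 1 to 4. All 3 obesity-prone libraries lay above all 7 others, and the obesity-resistant and control libraries overlapped. Between obesity-prone and obesity-resistant libraries the log2 fold change was 2.08 ± 0.55 (SE), a 4.22-fold difference with a 95% interval of 0.86 to 3.29 on the log2 scale (edgeR, adjusted p = 0.23). Between obesity-resistant and control libraries it was 0.01 ± 0.50, with an interval of -1.10 to 1.13 that leaves room for a difference of either sign (edgeR, adjusted p = 0.99). Without obesity-prone replicate 3 the first of these was 1.24, and without replicate 2 it was 2.45 with an adjusted p of 0.036, within a range of 0.0069 to 0.58 over all alternatives.

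Among the receptors and surface proteins, Trem2, at chr17:48346401-48352276, is the lipid receptor described above. It stood at 3.71, 0.979 and 6.05 CPM in the obesity-prone, 0.584, 0.806 and 0.466 CPM in the obesity-resistant, and 0.363, 0.956, 0.371 and 1.82 CPM in the control libraries, in replicate order. The obesity-prone libraries lay above all obesity-resistant ones, replicate 2 narrowly so, and control replicate 4 lay above obesity-prone replicate 2. The log2 fold change of obesity-prone against obesity-resistant libraries was 2.53 ± 0.72 (edgeR, adjusted p = 0.23), and without obesity-prone replicate 2 it was 2.97 with an adjusted p of 0.037, within a range of 0.02 to 0.61 over all alternatives. That of obesity-resistant against control libraries was -0.51 ± 0.69 (adjusted p = 0.75).

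Itgax, at chr7:128129526-128150657, encodes the integrin CD11c, carried by macrophages of obese fat and by dendritic cells. It stood at 10.2, 2.2 and 12.9 CPM in the obesity-prone, 0.862, 2.10 and 2.06 CPM in the obesity-resistant, and 0.615, 2.14, 0.713 and 3.56 CPM in the control libraries. Obesity-prone replicates 1 and 3 stood far above every other library, and replicate 2 was within the range of the control group and, on FPKM, below obesity-resistant replicate 2 (0.61 against 0.62). Against obesity-resistant libraries the log2 fold change was 2.33 ± 0.76 (edgeR, adjusted p = 0.25). Cd9, at chr6:125460266-125494760, encodes a tetraspanin of membranes and exosomes. Its levels were 10.5, 8.65 and 18.3 CPM in the obesity-prone, 7.51, 7.22 and 8.61 CPM in the obesity-resistant, and 6.68, 6.43, 5.82 and 10.1 CPM in the control libraries. The obesity-prone libraries lay above the obesity-resistant ones, by a narrow margin in replicate 2 that is lost on FPKM, where replicate 2 had 6.78 and obesity-resistant replicate 3 had 6.97. The log2 fold change was 0.68 ± 0.28 (edgeR, adjusted p = 0.29), and 0.30 without obesity-prone replicate 3. Between obesity-resistant and control libraries, Itgax had a log2 fold change of -0.08 ± 0.71 and Cd9 of 0.10 ± 0.26 (adjusted p = 0.97 and 0.88).

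Of the secreted products, Lgals3, at chr14:47373860-47386167, encodes galectin-3, a lectin that macrophages release and that also marks damaged lysosomes. It stood at 55.6, 17.1 and 93.0 CPM in the obesity-prone, 8.98, 17.0 and 12.2 CPM in the obesity-resistant, and 4.0, 10.8, 3.08 and 19.6 CPM in the control libraries. Obesity-prone replicate 2 sat level with obesity-resistant replicate 2 (on FPKM 12.6 against 13.3, so that the groups overlapped) and below control replicate 4. The log2 fold change of obesity-prone against obesity-resistant libraries was 2.12 ± 0.73 (edgeR, adjusted p = 0.25), and that of obesity-resistant against control libraries 0.44 ± 0.67 (adjusted p = 0.77).

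Mmp12, at chr9:7344397-7360461, encodes macrophage elastase, which cuts elastin and other matrix. It had the widest spread of the genes tested within the obesity-prone and control groups, with 24.3, 2.72 and 31.9 CPM in the obesity-prone, 1.0, 2.10 and 4.39 CPM in the obesity-resistant, and 0.308, 2.84, 0.228 and 6.75 CPM in the control libraries. Control replicates 2 and 4 and obesity-resistant replicate 3 lay above obesity-prone replicate 2, so that all groups overlapped. Its log2 fold changes were 2.98 ± 1.2 for obesity-prone against obesity-resistant and -0.03 ± 1.09 for obesity-resistant against control libraries (edgeR, adjusted p = 0.29 and 0.99).

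Spp1, at chr5:104435111-104441053, encodes osteopontin, a secreted ligand of CD44 and of integrins that draws macrophages into fat. It was scarce, with expected counts of 49, 26 and 46 in the obesity-prone, 8, 41 and 30 in the obesity-resistant, and 19, 13, 2 and 18 in the control libraries. The obesity-prone libraries lay above every control library, and so did obesity-resistant replicates 2 and 3. The log2 fold changes were 0.56 ± 0.62 for obesity-prone against obesity-resistant libraries (edgeR, adjusted p = 0.68) and 0.98 ± 0.61 for obesity-resistant against control libraries (adjusted p = 0.44).

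Apoe, at chr7:19696244-19701310, encodes apolipoprotein E, which carries cholesterol out of cells, is a ligand of TREM2 and is made by adipocytes as well as macrophages. Unlike the other genes it was lower in both high-fat groups, with 285, 277 and 456 CPM in the obesity-prone, 261, 335 and 316 CPM in the obesity-resistant, and 744, 684, 536 and 517 CPM in the control libraries. Every library on the high-fat diet lay below every control library. The log2 fold change of obesity-resistant against control libraries was -1.03 ± 0.21, with a 95% interval of -1.49 to -0.56 (edgeR, adjusted p = 0.074), and it passed the threshold without obesity-prone replicate 3 (adjusted p = 0.024), without control replicate 4 (0.028) and in DESeq2 (0.00017). Over all alternatives its adjusted p ranged from 0.00017 to 0.3. Between obesity-prone and obesity-resistant libraries it was 0.16 ± 0.22, with an interval of -0.32 to 0.64 (adjusted p = 0.75), and -0.11 without obesity-prone replicate 3. The 9 general adipocyte markers summed to 5772 to 5817 CPM in obesity-prone, 5631 to 5951 CPM in obesity-resistant and 6153 to 9011 CPM in control libraries, and their part in the level of Apoe was not tested.

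Atp6v0d2, at chr4:19876838-19922566, encodes the d2 subunit of the proton pump that acidifies lysosomes, made in osteoclasts and in macrophages. It stood at 4.80, 1.99 and 10.7 CPM in the obesity-prone, 0.612, 0.994 and 1.04 CPM in the obesity-resistant, and 0.308, 1.22, 0.143 and 2.22 CPM in the control libraries. All obesity-prone libraries lay above all obesity-resistant ones, and control replicate 4 lay above obesity-prone replicate 2. The log2 fold changes were 2.72 ± 0.86 for obesity-prone against obesity-resistant libraries (edgeR, adjusted p = 0.24) and -0.14 ± 0.82 for obesity-resistant against control libraries (adjusted p = 0.95). Fabp7, at chr10:57784923-57788450, encodes a fatty acid carrier best known from glia. Its expected counts were 2, 1 and 3 in the obesity-prone, 2, 5 and 1 in the obesity-resistant, and 0, 1, 4 and 3 in the control libraries, too few to show a difference at this depth.

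**Figure D1:**
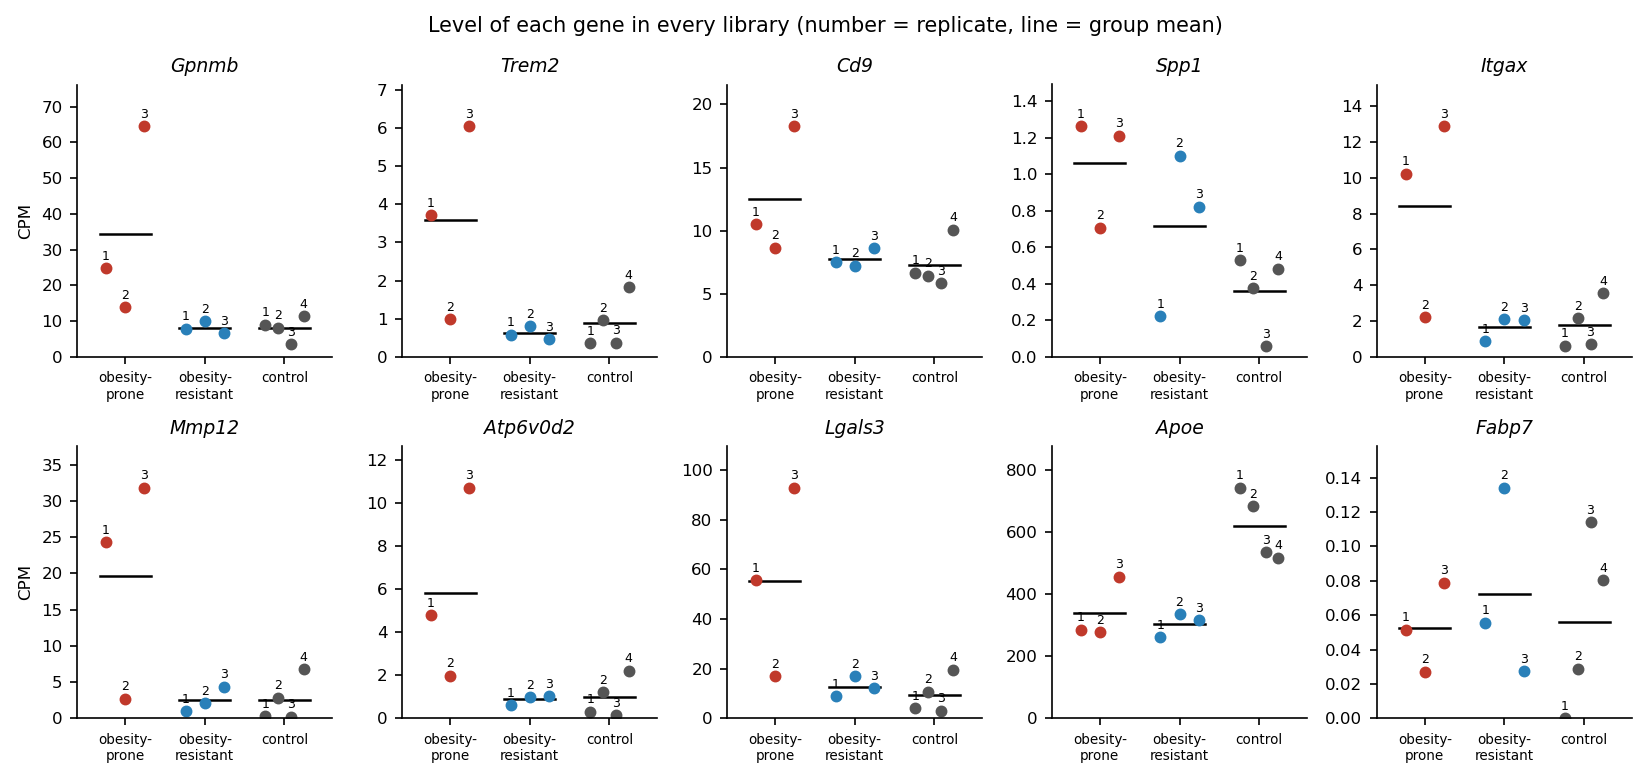
Each panel plots the level of 1 gene in CPM (linear axis from 0) in the 3 obesity-prone, 3 obesity-resistant and 4 control libraries; points are libraries labelled with their replicate number and lines are group means. Obesity-prone replicate 3 is the highest point for Gpnmb (64.6), Trem2 (6.05) and Lgals3 (93.0), replicate 2 is the lowest of its group in every gene, and Apoe is highest in the control group (517 to 744).

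The comparison of obesity-prone with obesity-resistant libraries sets 2 responses to a high-fat diet against each other. All 9 genes tested had a positive fitted log2 fold change, and the median was 2.12, against -0.01 over all 19676 genes tested. Gpnmb, Trem2, Cd9, Itgax, Atp6v0d2 and Lgals3 were higher in every obesity-prone than in any obesity-resistant library on CPM, 6 of the 10 genes, while 9.99% of all genes tested did so. On the deposited FPKM 3 of the 10 did so, Gpnmb, Trem2 and Atp6v0d2, against 8.40% of all genes, since Cd9, Itgax and Lgals3 then overlapped through obesity-prone replicate 2. At an unadjusted p below 0.05, 7 of the 9 were higher, all but Spp1 and Apoe, against 9.78% of all genes. None of the 9, and 0 of all 19676 genes (0%), passed an adjusted p of 0.05 in edgeR, in which 3030 genes (15.4%) had an unadjusted p below 0.05. DESeq2 called 565 of 16976 genes (3.33%), 401 of them higher (2.36%), among them Gpnmb (adjusted p = 0.0069), Trem2 (0.02), Atp6v0d2 (0.03) and Itgax (0.035), and limma on log2 FPKM called 0 genes. Without obesity-prone replicate 2, edgeR called 871 genes, with Gpnmb and Trem2 among them, and without control replicate 3 it called 1 gene. Without obesity-prone replicate 3 it called 0 genes, and the log2 fold changes were 2.44 for Mmp12, 1.94 for Atp6v0d2, 1.92 for Trem2, 1.90 for Itgax, 1.52 for Lgals3, 1.24 for Gpnmb, 0.46 for Spp1, 0.30 for Cd9 and -0.11 for Apoe. The comparison shares its obesity-prone libraries with the one the set was chosen from, so it is no independent check of these genes.

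Obesity-resistant libraries were set against control libraries to ask what a high-fat diet goes with in brown fat of mice that resist obesity. Of the 9 genes, 0 passed the threshold in edgeR, and Apoe alone had an unadjusted p below 0.05 and was the only one to lie apart from the control group in all libraries, below it. Of all genes, 28 (0.142%) passed, 19 higher (0.0966%) and 9 lower (0.0457%), while 3540 (18.0%) had an unadjusted p below 0.05, 9.03% in the lower direction, and 9.71% lay below the control group without overlap. The median log2 fold change of the 9 genes was -0.03, against -0.01 over all genes. The 95% intervals of the other 8 genes included 0, from -0.48 to 0.68 for Cd9 to -2.44 to 2.39 for Mmp12, so a difference of either sign was not detectable at this spread. DESeq2 called 1138 of 19263 genes (5.91%), 579 of them lower (3.01%), with Apoe as the only one of the 10. With the replicate number as a block, 382 genes passed and 0 of the 9. The block turned the sign for Trem2 (0.14), Itgax (0.51), Mmp12 (1.04) and Atp6v0d2 (0.66), and so did leaving out control replicate 4, at 0.14, 0.53, 1.15 and 0.67. These fits are not separate checks. No other library has the number of control replicate 4, so the block gives that library no weight in the comparison. The number of genes passing was 3, 6 and 4 without obesity-resistant replicates 1, 2 and 3, it was 7, 3 and 8 without control replicates 1, 2 and 3, and it was 180, 292 and 864 without obesity-prone replicate 2, obesity-prone replicate 3 and control replicate 4.

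Between obesity-prone and control libraries, the comparison known when the set was chosen, fitted log2 fold changes were 2.95 ± 1.06 for Mmp12, 2.58 ± 0.77 for Atp6v0d2, 2.56 ± 0.67 for Lgals3, 2.26 ± 0.69 for Itgax, 2.09 ± 0.49 for Gpnmb, 2.02 ± 0.64 for Trem2, 1.54 ± 0.60 for Spp1, 0.78 ± 0.26 for Cd9 and -0.87 ± 0.21 for Apoe. Gpnmb and Spp1 were higher in every obesity-prone than in any control library (9.66% of all genes tested) and Apoe was lower (10.6%). Gpnmb, Lgals3 and Apoe were among the 1377 genes (7.00%) past the threshold in edgeR, from which nothing is read here. DESeq2 called 3138 of 18121 genes there (17.3%) and 7 of the 9. That number of the 9 was 0 without obesity-prone replicate 1, without any 1 of the obesity-resistant libraries and without any 1 of control replicates 1 to 3. It was 6 without obesity-prone replicate 2, 1 without obesity-prone replicate 3 and 8 without control replicate 4.

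**Figure D2:**
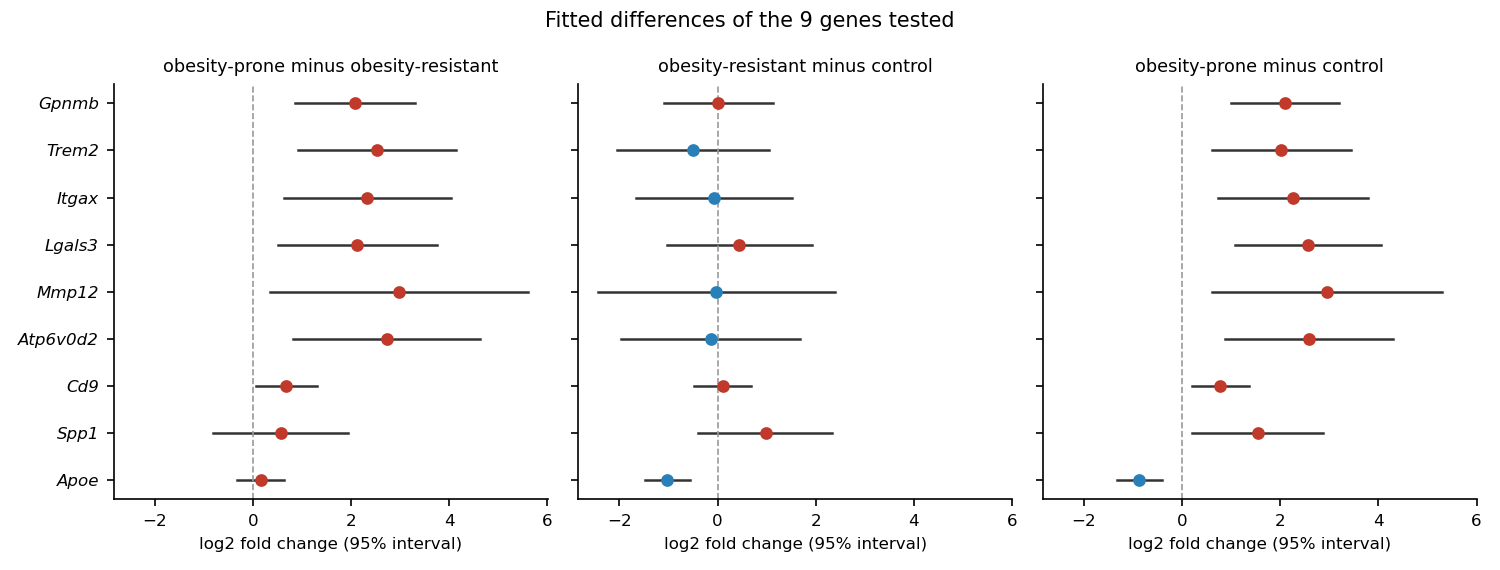
Points are fitted log2 fold changes and bars their 95% intervals for the 9 genes tested, in obesity-prone minus obesity-resistant (left), obesity-resistant minus control (middle) and obesity-prone minus control libraries (right); red marks values above 0 and blue values below. Gpnmb lies at 2.08, 0.01 and 2.09, and Apoe at 0.16, -1.03 and -0.87.

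The order of the libraries was shared most in the obesity-prone group. Within the obesity-prone group, replicate 3 was highest, replicate 1 next and replicate 2 lowest in 9 of the 10 genes, and in Spp1 replicates 1 and 3 changed places. The 9 include Fabp7, whose counts are too few to rank libraries. Summed markers of general macrophages, fibroblasts and erythrocytes took the same order, and those of brown adipocytes the reverse. The share of all genes in this order was not counted, so it cannot be called particular to the 10 genes. Control replicate 4 was the highest control library in 7 of the 10, the exceptions being Spp1, Apoe and Fabp7, and the 4 control libraries took 6 different orders over the 10 genes. The 3 obesity-resistant libraries took 4 different orders, the commonest of them in 4 genes. The highest obesity-prone library exceeded the lowest 11.7-fold for Mmp12, 6.18-fold for Trem2, 4.68-fold for Gpnmb and 1.64-fold for Apoe. Within the obesity-resistant group the same ratio was 1.49-fold for Gpnmb and 1.73-fold for Trem2, and it reached 4.95-fold for Spp1.

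Markers of several cell types moved with the set, general macrophage markers among them. The 20 markers, all detected in every library, together reached 450, 240 and 677 CPM in obesity-prone replicates 1 to 3, and 167, 202 and 175 CPM in obesity-resistant replicates 1 to 3, against 204, 216, 161 and 296 CPM in control replicates 1 to 4. The 8 fibroblast markers summed to 788 to 1807 CPM in obesity-prone, 516 to 685 CPM in obesity-resistant and 539 to 944 CPM in control libraries, and the 11 brown adipocyte markers to 4391 to 11590, 12020 to 12990 and 9023 to 12910 CPM in the same order. Both sums separated the obesity-prone from the obesity-resistant libraries without overlap, the first upward and the second downward, and their part in the levels of the 10 genes was not tested. In tissue RNA, more macrophages and more of a transcript per macrophage cannot be told apart. Per 100 CPM of these markers, Gpnmb still stood at 5.50, 5.77 and 9.54 in the obesity-prone, 4.73, 4.91 and 3.79 in the obesity-resistant, and 4.43, 3.79, 2.21 and 3.88 in the control libraries. The obesity-prone libraries lay above all others on this scale, by a smaller margin than in CPM. Atp6v0d2, at 0.83 to 1.59 in obesity-prone, 0.366 to 0.596 in obesity-resistant and 0.0885 to 0.752 in control libraries, was likewise highest in the obesity-prone group without overlap.

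The other genes behaved differently on this scale. Trem2 spanned 0.409 to 0.894 in obesity-prone, 0.267 to 0.399 in obesity-resistant and 0.178 to 0.616 in control libraries, so that the obesity-prone and control groups overlapped. Obesity-prone libraries ranged from 0.920 to 2.27 for Itgax, against 0.516 to 1.2 in obesity-resistant ones, from 1.14 to 5.40 for Mmp12, against 0.599 to 2.51, and from 7.13 to 13.7 for Lgals3, against 5.38 to 8.42. These groups overlapped in all 3 genes through obesity-prone replicate 2. Spp1 averaged 0.252 in obesity-prone, 0.383 in obesity-resistant and 0.158 in control libraries, so that its order between the high-fat groups was the reverse of that in CPM. Cd9 was at 2.33 to 3.61 in obesity-prone, 3.58 to 4.92 in obesity-resistant and 2.97 to 3.61 in control libraries, so the obesity-prone group was not the highest. Apoe was at 63.4 to 116 in obesity-prone, 156 to 181 in obesity-resistant and 175 to 365 in control libraries. These ratios carry no test, since the markers were known to differ between the groups.

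**Figure D3:**
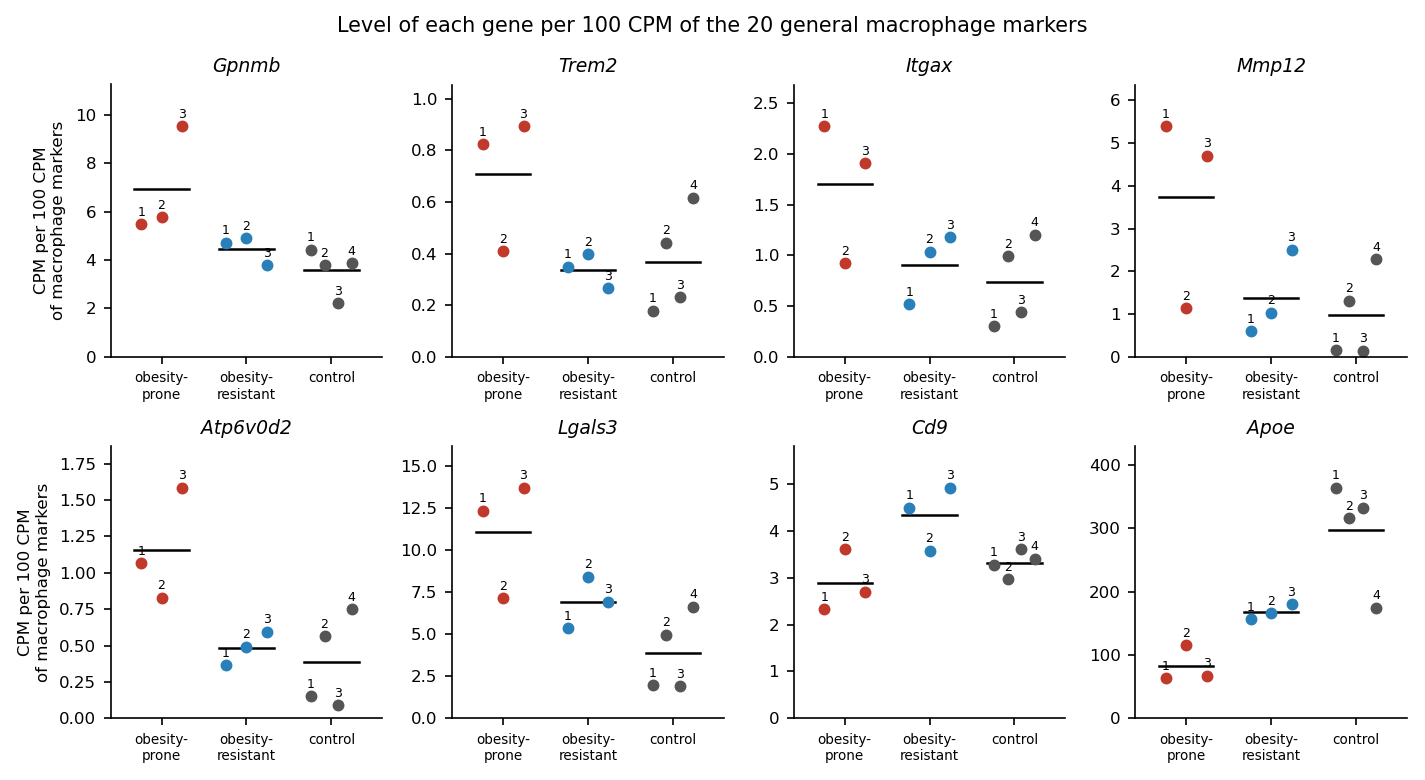
Each panel plots 1 gene as CPM per 100 CPM summed over 20 general macrophage markers (linear axis from 0) in obesity-prone, obesity-resistant and control libraries; points are libraries with their replicate number and lines are group means. Gpnmb and Atp6v0d2 remain highest in all 3 obesity-prone libraries, while Cd9 spans 2.33 to 3.61 there against 3.58 to 4.92 in obesity-resistant libraries.

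Across the 10 libraries, log2 CPM of Gpnmb had a Pearson r of 0.92 with Cd9 and Atp6v0d2, 0.91 with Trem2 and Lgals3, 0.86 with Itgax, 0.83 with Mmp12, 0.73 with Spp1 and -0.17 with Apoe. With group means removed the r with Apoe was 0.65, and the others lay between 0.62 and 0.83. The libraries share group and composition, so these values describe these 10 libraries. Of 13736 genes with a mean of at least 1 CPM, the 8 most like Gpnmb were Desi1, Rhog, Pcolce, Gm37053, Tlr8, Man1c1, Col6a3 and C1qb, with r of 0.97 to 0.99. Rhog encodes a small GTPase, Tlr8 an endosomal receptor for RNA, C1qb a chain of complement C1q made by macrophages, and Pcolce and Col6a3 an enhancer of collagen processing and a collagen chain. Without the 2 libraries farthest from the median of Gpnmb these r values were 0.90 to 0.97. The 5 genes most like Trem2 were Lcp1, Cotl1, Efhd2, Il7r and Slc11a1, each with an r of 0.99. Lcp1 and Cotl1 encode actin-binding proteins of leukocytes, Il7r the interleukin-7 receptor and Slc11a1 a metal transporter of phagosomes.

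Adaptor and signalling genes of TREM2 were mostly higher in obesity-prone than in obesity-resistant libraries, though none passed the adjusted threshold. The list also holds Adam10, Adam17 and Treml2, which are not downstream of TREM2. Of the 16 tested, 15 had a log2 fold change above 0 in obesity-prone against obesity-resistant libraries. The median of the 16 was 1.02, against 1.33 for general macrophage markers and -0.01 over all genes. An unadjusted p below 0.05 was found in 15 of the 16 and in 15.4% of all genes. Tyrobp, the adaptor that carries the TREM2 signal, was at 10.2, 5.14 and 16 CPM in the obesity-prone, 2.56, 3.71 and 2.80 CPM in the obesity-resistant, and 3.24, 4.17, 2.57 and 5.30 CPM in the control libraries. It lay apart from the obesity-resistant group, with a log2 fold change of 1.78 ± 0.39 (edgeR, adjusted p = 0.23), and rose against control by 1.45 ± 0.35 (adjusted p = 0.04), the only one of the 16 to pass in that comparison. Macrophage genes were known to be higher against control, where 3.71% of all genes rose, so this call is a description. Syk, the kinase recruited by TYROBP, was at 20.1, 12.1 and 33.0 CPM in the obesity-prone, 6.20, 8.06 and 8.31 CPM in the obesity-resistant, and 9.42, 9.5, 6.19 and 13.1 CPM in the control libraries. Its log2 fold change against obesity-resistant libraries was 1.53 ± 0.35 (adjusted p = 0.23). The other adaptor, Hcst, had at most 8 counts in a library and was not tested.

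None of the other genes of the lipid-associated programme passed against obesity-resistant libraries. Of 29 tested, 25 were above 0 in obesity-prone against obesity-resistant libraries with a median of 0.43, against -0.01 over all genes. An unadjusted p below 0.05 was found in 16 of them and in 15.4% of all genes. Against control, 5 rose (3.71% of all genes rose) and 1 fell (3.29% fell), a description, since macrophage genes were known to be higher in that comparison. Those that rose were Plin2, which coats lipid droplets (1.12 ± 0.25, adjusted p = 0.031), Lipa, the lysosomal acid lipase (0.46 ± 0.12), Hexa, a lysosomal hexosaminidase (0.47 ± 0.10), Gpr137b, a lysosomal membrane protein (0.62 ± 0.15), and Clec4d, a lectin receptor of myeloid cells (2.77 ± 0.71), and Fabp4, the main fatty acid carrier of adipocytes, fell (-0.52 ± 0.14). With each of the 10 libraries left out in turn, Plin2 passed in 5 fits, Hexa in 4, Gpr137b, Clec4d and Fabp4 in 2 and Lipa in 1. Plin2 stood at 1235, 1124 and 878 CPM in the obesity-prone, 640, 844 and 978 CPM in the obesity-resistant, and 369, 427, 438 and 753 CPM in the control libraries, and its log2 fold change against obesity-resistant libraries was 0.39 ± 0.27 (edgeR, adjusted p = 0.49). Lpl, the lipoprotein lipase of macrophages and adipocytes, was lower in every obesity-prone library (3521 ± 872 CPM, n = 3) than in any obesity-resistant one (6075 ± 1060 CPM, n = 3), with a log2 fold change of -0.79 ± 0.22 (adjusted p = 0.23). Adipocytes express Plin2, Lpl, Cd36 and Fabp4 strongly, so tissue levels of these genes are not levels in macrophages.

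Receptors and partners of the 10 proteins gave a median of 0.48 over 22 genes, 18 of them above 0 in obesity-prone against obesity-resistant libraries. Of all 19676 genes tested, 9622 were above 0, with a median of -0.01. Of the 252 tested genes of all lists outside the 10, 170 were above 0, with a median of 0.29. Against control 3 rose (3.71% of all genes) and 0 fell (3.29%): Itgb5 (0.81 ± 0.11, adjusted p = 0.0092) and Itgav (0.29 ± 0.07, adjusted p = 0.04), the chains of an integrin that binds osteopontin, and Ptgfrn, a partner of CD9 (0.91 ± 0.23, adjusted p = 0.046). With 1 library left out, Itgb5 passed in all 10 fits and Itgav and Ptgfrn in 2. Cd44, another osteopontin receptor, was at 24.6, 10.6 and 33.4 CPM in the obesity-prone, 6.26, 11.1 and 11.2 CPM in the obesity-resistant, and 6.18, 6.37, 3.76 and 13.6 CPM in the control libraries. Its level in obesity-prone replicate 2 lay within both other groups.

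Genes of cholesterol efflux and LXR control, to which Apoe belongs, had a median of 0.01 over 12 genes in obesity-prone against obesity-resistant and of -0.20 in obesity-resistant against control libraries. Abca1, the pump that loads cholesterol onto apolipoproteins, fell against control by 0.93 ± 0.16 on the log2 scale in obesity-prone libraries (edgeR, adjusted p = 0.018), and its log2 fold change in obesity-resistant against control libraries was -0.75 ± 0.16 (adjusted p = 0.077). It stood at 208, 246 and 288 CPM in the obesity-prone, 295, 297 and 246 CPM in the obesity-resistant, and 516, 433, 548 and 380 CPM in the control libraries. As with Apoe, every library on the high-fat diet lay below every control library. Of all genes, 10.6% did so in obesity-prone and 9.71% in obesity-resistant libraries. The list was split, with 6 of the 12 above 0 and 6 below in obesity-prone against control libraries. Abcg1 went the other way from Apoe, at 26.05 to 51.38 CPM in obesity-prone, 24.27 to 30.59 CPM in obesity-resistant and 19.41 to 24.09 CPM in control libraries. Apoc1, the neighbour of Apoe in its gene cluster, averaged 45.0 CPM in obesity-prone, 69.1 CPM in obesity-resistant and 99.7 CPM in control libraries, and its log2 fold change of obesity-prone against control libraries was -1.15 ± 0.34 (adjusted p = 0.064).

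Of the MiT/TFE factors and their regulators, which control lysosomal genes and Gpnmb, 3 of 9 rose in obesity-prone against control libraries, where 3.71% of all genes rose: Mitf (0.63 ± 0.14, adjusted p = 0.03), Tfe3 (0.36 ± 0.07, adjusted p = 0.023) and Fnip2 (0.52 ± 0.13, adjusted p = 0.04). With 1 library left out, they passed in 5, 6 and 2 of the 10 fits. Against obesity-resistant libraries Mitf had a log2 fold change of 0.23 ± 0.15 and Tfeb of 0.00 ± 0.10 (edgeR, adjusted p = 0.46 and 0.99), and the median of the 9 was 0. Of the 18 other subunits and partners of the proton pump, 14 were below 0 in obesity-prone against obesity-resistant libraries, as were 10053 of all 19676 genes tested. The median of the 18 was -0.13, against 2.72 for Atp6v0d2. The ubiquitous paralogue Atp6v0d1 averaged 68.9 CPM in obesity-prone, 63.8 CPM in obesity-resistant and 56.0 CPM in control libraries, a log2 fold change of 0.11 ± 0.11 between the first 2 groups. Tcirg1, the pump subunit of osteoclasts and macrophages, had one of 0.52 ± 0.16 (adjusted p = 0.24) and rose against control by 0.60 ± 0.15 (adjusted p = 0.043). It was the only 1 of the 18 to pass there, where 3.71% of all genes rose, and passed in 2 of the 10 fits with 1 library left out.

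Among the relatives of the secreted genes, Timp3, an inhibitor of matrix metalloproteinases, rose in obesity-prone against control libraries by 0.86 ± 0.12 (edgeR, adjusted p = 0.011). It was the only 1 of 13 tested, where 3.71% of all genes rose. Mmp9, gelatinase B, averaged 5.35 CPM in obesity-prone, 2.03 CPM in obesity-resistant and 5.28 CPM in control libraries, a pattern unlike that of Mmp12, with log2 fold changes of 1.40 ± 0.31 against obesity-resistant libraries and 0.02 ± 0.28 against control (adjusted p = 0.23 and 0.97). Lgals1, galectin-1, averaged 247 CPM in obesity-prone, 146 CPM in obesity-resistant and 196 CPM in control libraries, and none of the 6 galectins tested passed in any comparison; Lgalsl and Lgals12 had log2 fold changes of 0.31 ± 0.10 and 1.01 ± 0.40 against obesity-resistant libraries. Of the 3 other fatty acid carriers tested, Fabp5 stood at 28.3 ± 4.57 CPM in obesity-prone, 18.7 ± 1.43 CPM in obesity-resistant (n = 3 each) and 24.9 CPM in control libraries, with log2 fold changes of 0.60 ± 0.13 against obesity-resistant and 0.19 ± 0.12 against control libraries (adjusted p = 0.23 and 0.33). The 10 scavenger receptors tested had a median of 0.69 in obesity-prone against obesity-resistant libraries, and none passed in any comparison. The lowest p belonged to Cd163 (0.75 ± 0.19), Msr1 (1.41 ± 0.44) and Scarb2 (-0.43 ± 0.14), a lysosomal membrane protein that was lower in every obesity-prone than in any obesity-resistant library.

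**Figure D4:**
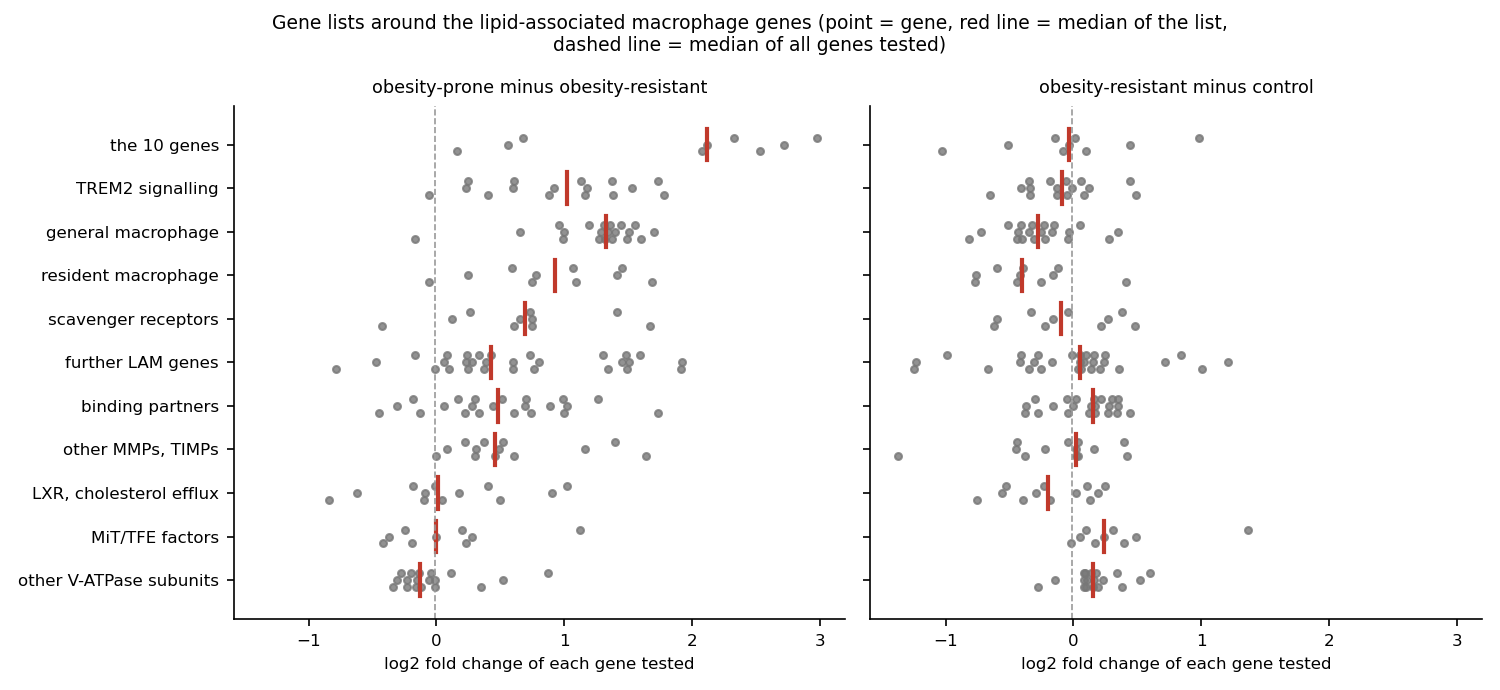
Each point is the fitted log2 fold change of 1 tested gene, grouped by gene list, in obesity-prone minus obesity-resistant libraries (left) and obesity-resistant minus control libraries (right); red lines are list medians and the dashed line is the median of all genes tested. Marker lists of cell types other than macrophages, galectins and fatty acid carriers are not drawn. On the left the medians of the lists drawn run from 2.12 for the 10 genes and 1.33 for general macrophage markers to -0.13 for other V-ATPase subunits, and on the right they lie between -0.40 and 0.24.

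Over all genes the median of obesity-prone against obesity-resistant libraries was -0.01 on the log2 scale, with 15.4% at an unadjusted p below 0.05. General macrophage markers had a median of 1.33, with 18 of 20 at such a p, and resident macrophage markers one of 0.93, with 7 of 10. Against control, where macrophage genes were known to be higher, Lyz2, lysozyme of myeloid cells, was the only one of these 30 markers to pass. It rose by 1.29 ± 0.29 (edgeR, adjusted p = 0.033), given as a description, and passed in 2 of the 10 fits with 1 library left out. Of all genes, 3.71% rose against control. The summed markers of melanocytes, Schwann cells, dendritic cells and osteoclasts overlapped between the groups. Melanocyte markers, of interest because melanocytes make GPNMB, summed to 6.52 to 7.71 CPM in obesity-prone, 6.25 to 7.67 CPM in obesity-resistant and 6.37 to 7.24 CPM in control libraries, and Mlana had 0 to 5 counts in a library while Slc45a2 was at 0 in 8 libraries. Schwann cell markers summed to 142 to 169, 142 to 187 and 124 to 179 CPM in the same order, dendritic cell markers to 87.9 to 106, 94.9 to 102 and 82.9 to 104 CPM, and osteoclast markers to 183 to 253, 171 to 189 and 173 to 231 CPM. The only markers of these 3 lists at 0 in any library were Batf3 in obesity-resistant replicate 2 and Dcstamp in control replicate 3. Erythrocyte markers summed to 2418 to 22210 CPM in obesity-prone, 708 to 2548 CPM in obesity-resistant and 822 to 6160 CPM in control libraries, highest in the 2 libraries, obesity-prone replicate 3 and control replicate 4, that led their groups in most of the 10 genes. The part of blood or of library composition in these levels was not tested. No gene passed in any comparison among markers of resident macrophages, dendritic cells, melanocytes, endothelium, muscle or erythrocytes. Log2 fold changes of obesity-prone against obesity-resistant libraries with the lowest p in these lists were, beside Cd163, 1.07 ± 0.27 for F13a1 and 0.59 ± 0.15 for Gas6 of resident macrophages, and 1.26 ± 0.34 for Irf8, 1.63 ± 0.48 for Clec10a and 0.77 ± 0.44 for Clec9a of dendritic cells. They were 0.15 ± 0.29 for Dct, -0.08 ± 0.19 for Tyrp1 and 0.08 ± 0.19 for Tyr of melanocytes, and 0.30 ± 0.21 for Cdh5, 0.30 ± 0.22 for Pecam1 and 0.14 ± 0.14 for Tie1 of endothelium. Muscle genes spread widely, with -4.43 ± 2.41 for Myh2, -3.36 ± 1.85 for Tnnc2 and -2.62 ± 1.51 for Mylpf, and the erythrocyte genes Hba-a2 and Hba-a1 stood at 2.68 ± 1.0 and 2.64 ± 1.0.

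Across all 24 lists, 25 of the 252 genes tested outside the 10 (9.92%) passed in obesity-prone against control libraries, against 7.00% of all genes, and 0 in the other comparisons. With 1 library left out, 8, 24 and 11 of the 25 still passed without obesity-prone replicates 1, 2 and 3, 12, 10 and 12 without obesity-resistant replicates 1, 2 and 3, and 9, 8, 5 and 23 without control replicates 1 to 4. Itgb5, S100a9, Csf3r, Adrb3 and Cfd passed in all 10 of these fits. S100a9 and Csf3r, genes of neutrophils, rose by 2.61 ± 0.35 and 1.68 ± 0.24 (edgeR, adjusted p = 0.0092 and 0.011). Adrb3, the adrenergic receptor of fat cells, rose by 1.07 ± 0.15 (adjusted p = 0.011), and Cfd, the adipokine adipsin, fell by 2.38 ± 0.32 (adjusted p = 0.0092). Tyrobp passed in 2 of the 10, and Abca1, Timp3 and Clcn7, a chloride transporter of lysosomes, in 9. Lep, the hormone leptin, rose by 3.71 ± 0.97 (adjusted p = 0.049) but passed in 1 of the 10 and stood at 395 CPM in obesity-prone replicate 3, against 61.2 and 23.9 CPM in replicates 1 and 2. Ly6a, a marker of stromal progenitors, rose by 0.90 ± 0.23 (adjusted p = 0.045), and Erbb3, a receptor of Schwann cells, fell by 0.73 ± 0.18 (adjusted p = 0.04), in 2 and 3 of the 10 fits.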

How the data were processed

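Total RNA of 10 brown adipose tissue libraries was sequenced. Per the labels' protocols, the authors aligned reads with Bowtie2 2.2.5 to a gene set of known and new transcripts, and RSEM 1.2.12 gave the expected counts deposited per gene and library, which are not normalised. The FPKM values (scaled to gene length and library size) were deposited by the authors beside them, and the submitters' processing notes name HISAT2 2.0.4 and the build GRCm38.p6. Of the expected counts, 30.4% were not whole, and 23.7% of all counts lay in genes without a name. Reads shared by similar genes are split by RSEM, and counts of Apoe (10 libraries), Itgax (5) and Cd9 (3) were not whole. The strand setting is not given in the sources used here.

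Counts were rounded and tested in edgeR 4.0.16 (R 4.3.3) with TMM factors, filterByExpr (minimum count 10, 19676 genes kept) and a robust quasi-likelihood fit of the 3 groups over all 10 libraries, tested on simulated data first. The simulated counts had the same setting of spread for every gene and no library apart from its group. They therefore say nothing of how the fit handles such libraries. P-values are two-sided and adjusted by Benjamini-Hochberg over all genes tested, and a gene passed at an adjusted p below 0.05. CPM use TMM-normalised library sizes, and likeness between genes used log2 CPM with a prior count of 2. Totals of 35583997 to 37327770 counts per library give little precision below about 10 counts. Coordinates and promoters are from RefSeq, GRCm38.p6. The 6 deposited columns of group means were not used.

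The 10 genes, the 24 gene lists (282 genes, 279 found), tests and alternatives were chosen with earlier results of these data known. Named from a list were every gene that passed in any comparison, otherwise the 3 with the lowest p between obesity-prone and obesity-resistant libraries, and, as examples, its leading 2 where used. Syk, Mmp9, Fabp5, Atp6v0d1, Apoc1, Abcg1, Batf3, Dcstamp and Slc45a2 were named after their values were seen. A gene that the rule names is not reported here. The same results were recomputed with DESeq2 1.42.0, with scaling factors by RLE or the upper quartile, without the filter or with one of 1 CPM in 3 libraries, from the 2 compared groups alone, with a block for the replicate number, with limma 3.58.1 on log2 FPKM plus 0.5, 0.1 or 1, and with each library left out. Leaving out obesity-prone replicate 3 and control replicate 4 together was chosen after seeing the data.

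Replicate numbers come from the titles. Deviations of same-numbered libraries from their group means correlated at 0.15, 0.12 and 0.19 between obesity-resistant and control libraries, which was taken as a weak sign of pairing. Libraries of different numbers were not compared in this way, so these values cannot show pairing. The fit reported has no block for it, and values with the block stand beside that comparison. Control replicate 4 has no library of its number in the other groups, so a fit with the block gives it no weight between groups. Such deviations correlated at -0.11, -0.06 and 0.21 between obesity-prone and obesity-resistant and at -0.09, -0.10 and -0.15 between obesity-prone and control libraries, which were not taken as paired.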

Additional observations from a re-analysis of the deposited data

How the results depend on the processing

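With 3 or 4 libraries a group and a wide spread in the obesity-prone group, intervals of the 9 genes were broad, and counts under 50 per library limit Spp1 and Fabp7. Every log2 fold change of Gpnmb, Trem2, Itgax, Mmp12, Atp6v0d2, Lgals3, Cd9 and Spp1 in obesity-prone against obesity-resistant libraries kept its sign under all 21 alternatives, from 1.24 to 2.45 for Gpnmb and from 1.31 to 2.97 for Trem2.

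Genes passing in obesity-prone against obesity-resistant libraries numbered 0 in the fit reported and 565 in DESeq2, with 4 of the 9 genes among them. Leaving out 1 library gave 0 to 871 genes and 0 to 2 of the 9. Apoe ran from -0.11 to 0.28 there, and stood at -0.12 without obesity-prone replicate 3 and control replicate 4 together.

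In obesity-resistant against control libraries the 28 genes became 76 without a filter, 68 with the stricter filter, 391 in the fit of only these 2 groups and 1138 in DESeq2. Apoe, as 1 of the 9, passed in 6 of 21 alternatives: without a filter, in the fit of 2 groups, in DESeq2, and without obesity-prone replicate 3, control replicate 4 or both. Leaving out 1 library gave 3 to 864 genes and 0 to 1 of the 9, and leaving out obesity-prone replicate 3 and control replicate 4 together gave 2212 genes and 1 of the 9. With the replicate number as a block 382 genes and 0 of the 9 passed, and the sign turned for Trem2 (0.14), Itgax (0.51), Mmp12 (1.04) and Atp6v0d2 (0.66). The block also gives control replicate 4 no weight, so it is not a separate check from leaving that library out. On log2 FPKM with constants of 0.5, 0.1 and 1 the sign also turned for Itgax (0.09, 0.25 and 0.05), Mmp12 (0.37, 0.77 and 0.21) and Atp6v0d2 (0.09, 0.36 and 0.04). Leaving out 1 library spread the log2 fold change from -0.23 to 0.23 for Gpnmb, -0.76 to 0.14 for Trem2, -0.36 to 0.53 for Itgax, -0.70 to 1.15 for Mmp12 and -0.50 to 0.67 for Atp6v0d2. Without obesity-prone replicate 3 and control replicate 4 together Trem2 was at 0.15, Itgax at 0.54, Mmp12 at 1.16 and Atp6v0d2 at 0.68. None of these values passed, and the cause was not tested.

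In obesity-prone against control libraries 1377 genes and 3 of the 9 became 66 and 0 in the fit of only these 2 groups and 3138 and 7 in DESeq2. Of the 9, 1 passed without a filter, 1 on log2 FPKM plus 0.5, and 0 with 0.1 or 1. Leaving out 1 library gave 76 to 3040 genes and 0 to 8 of the 9, and leaving out obesity-prone replicate 3 and control replicate 4 together gave 2635 genes. The replicate block gave 1582 genes and 1 of the 9, Lgals3, here, and 0 genes in obesity-prone against obesity-resistant libraries. The block changed no other call of the 9 genes.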
